A study of Mus musculus with 6 samples.

Results

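The 53 genes described here are imprinted in mice: in at least some tissues, the copy from 1 parent is expressed and the other is silent. They were chosen by symbol from knowledge of imprinting and not by a rule on values, though earlier results of these data were known. All 53 were found among the 24062 genes of the deposited count table, and 41 had at least 1 count in at least 1 of the 6 libraries. By the parent whose copy is expressed where the gene is imprinted, 24 are called maternally and 29 paternally expressed here.

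The RNA came from eggs at metaphase II (MII), the ovulated and unfertilized stage, of superovulated 8-week-old mice. All groups came from females carrying HISRainbow, a multicolour histone transgene, with Figla-iCre, a recombinase driven in oocytes. K27R eggs made H3.3K27R-mCherry, the replacement histone H3.3 with lysine 27 changed to arginine. R26K eggs made H3.3R26K-eCFP, with arginine 26 changed to lysine, and H3.3 eggs made unmutated H3.3-eGFP. The form that an egg made was read from its colour by confocal microscopy. Each form had its own tag, so tag and substitution cannot be told apart. The labels give neither the number of eggs nor the number of females behind a library. Each group had 2 libraries that the labels call biological replicates, and p-values measure only the spread between such libraries.

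Most imprints are set in the germ line by DNA methylation of a control region. In the oocyte, transcripts that run across such regions guide the methylation, and after fertilization the zinc finger protein ZFP57 binds a methylated 6-base motif in them and helps to keep the mark. A smaller group of genes is silenced on the maternal copy by trimethylation of histone H3 lysine 27 (H3K27me3) laid down by Polycomb in the oocyte; both substitutions in this study lie at or beside that lysine. An egg before fertilization holds only maternal chromosomes, so these counts cannot show which parental copy was used. They give the RNA that was turned into cDNA, and stored RNA missed at that step is not seen.

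Gene counts totalled 11557291 and 10803477 in K27R, 39603440 and 33786225 in R26K, and 12748821 and 11452906 in H3.3. A count of 3, the limit that a count of 0 allows, stands for 0.244 and 0.285 CPM (counts scaled to a common library size by the TMM method, as edgeR gives them) in K27R, 0.0815 and 0.0907 in R26K, and 0.23 and 0.255 in H3.3. Such limits speak of counting error alone, because amplified cDNA yields several reads from 1 molecule. The libraries also differed in how many genes they held beyond depth. Among all genes averaging 2 to 10 CPM in the other 5 libraries, 21% and 59.4% had no count in K27R replicates 1 and 2, 8.2% and 8.89% in R26K, and 57.7% and 58.9% in H3.3. Between 20 and 50 CPM the shares were 0.657% and 15.8% in K27R, 0.108% and 0.385% in R26K, and 15% and 19.1% in H3.3. A gene without counts in H3.3 or in K27R replicate 2 may therefore still have been present. All 9 oocyte markers, among them Gdf9 and Zp3, had counts in every library.

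The start regions of 3 members are shown because Mest was the most abundant member, and because H13, with its inner gene Mcts2, differed most between groups among the members counted in every library. Mest starts inside a control region methylated in oocytes. Mcts2 is a retrogene whose start is another such region, and it lies within H13, whose transcripts end early on the copy where Mcts2 is active. Capitals mark TGCCGC, the motif ZFP57 binds when methylated, or its reverse complement GCGGCA. The windows run from 250 bases before to 50 after the start, 5′ to 3′ (RefSeq, GRCm38.p6, the same coordinates as mm10).
Mest, chr6:30737803-30738102, plus strand: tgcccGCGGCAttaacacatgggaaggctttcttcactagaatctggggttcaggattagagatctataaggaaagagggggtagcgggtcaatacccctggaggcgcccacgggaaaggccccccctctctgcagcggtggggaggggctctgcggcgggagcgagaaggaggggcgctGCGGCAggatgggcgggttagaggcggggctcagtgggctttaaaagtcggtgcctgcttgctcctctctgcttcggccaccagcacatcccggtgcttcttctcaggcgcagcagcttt
Mcts2, chr2:152686898-152687197, plus strand: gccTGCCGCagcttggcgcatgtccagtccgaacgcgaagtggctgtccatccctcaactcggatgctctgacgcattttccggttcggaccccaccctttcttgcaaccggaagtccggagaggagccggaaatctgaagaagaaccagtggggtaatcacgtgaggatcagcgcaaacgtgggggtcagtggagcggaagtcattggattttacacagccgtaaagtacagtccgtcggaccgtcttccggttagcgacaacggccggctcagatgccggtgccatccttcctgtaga
H13, chr2:152669211-152669510, plus strand: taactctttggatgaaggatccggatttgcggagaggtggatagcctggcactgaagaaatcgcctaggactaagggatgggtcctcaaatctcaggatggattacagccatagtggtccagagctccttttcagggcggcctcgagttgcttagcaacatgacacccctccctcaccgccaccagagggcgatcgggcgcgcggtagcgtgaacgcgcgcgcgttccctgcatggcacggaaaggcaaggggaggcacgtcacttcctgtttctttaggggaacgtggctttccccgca

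The Mest window shown held 2 copies of the motif, the Mcts2 window 1, and the H13 window none. A Mest window further upstream, at chr6:30733256-30733555, held none. Of the 53 members, 43 matched the promoter table, with 65 start windows; Peg10, Trappc9, H19, Nespas, Smoc1, Peg13, Klf14, Cdkn1c, Sgce and Impact did not. The motif stood in 14 of the 65 windows, or 21.5%, against 11.6% of all 32851 windows and 19.4% of the 6137 windows of genes averaging at least 10 CPM in these eggs. Overlapping windows of the same gene, as for Mest, Gab1 and Gnas, were counted separately. Windows of members averaging at least 10 CPM had a median GC content of 64.3% and an observed to expected CpG ratio of 0.713. For all genes averaging at least 10 CPM the medians were 61% and 0.791, a slightly lower GC content and a higher CpG ratio. For members without any count they were 51.3% and 0.513, and for all windows 52.7% and 0.384. A match is a description of letters and not evidence of binding.

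More imprinted genes were detected in R26K than in the other groups, as was the case for all genes. At least 1 count was found for 25 and 20 of the 53 in K27R, 32 and 31 in R26K, and 16 and 17 in H3.3. As shares these were 47.2% and 37.7% in K27R, 60.4% and 58.5% in R26K, and 30.2% and 32.1% in H3.3. All genes of the table gave 44.5% and 30.8% in K27R, 50.4% and 50.3% in R26K, and 31.5% and 30.7% in H3.3. In every library but H3.3 replicate 1 the imprinted share was above that of all genes.

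**Figure D1:**
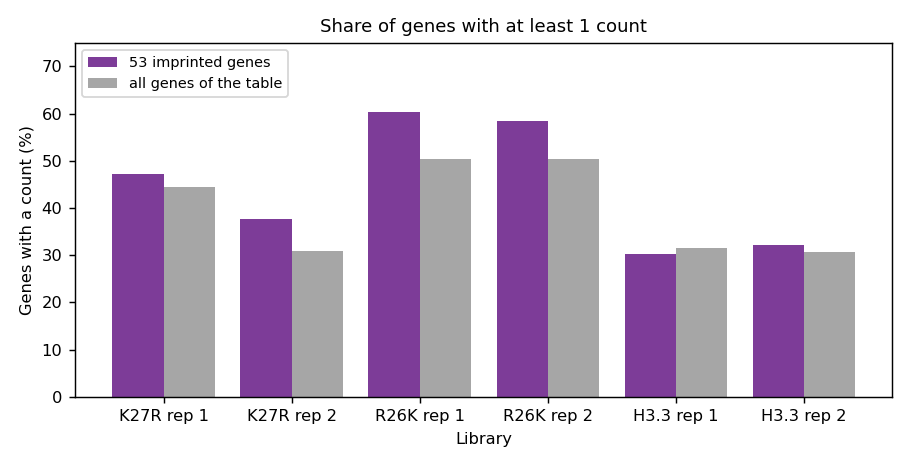
Share of genes with at least 1 count in each library (%), for the 53 imprinted genes and for all 24062 genes. Both bars are tallest in R26K, where the imprinted genes reach 60.4% and 58.5%. The bar of the imprinted genes is lowest in H3.3, at 30.2% and 32.1%, while that of all genes is about as low in K27R replicate 2 (30.8%) as in H3.3 (31.5% and 30.7%).

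Detection within a group was often by 1 library alone. In K27R, 18 members had counts in both libraries and 9 in only 1, among them Plagl1, Tssc4 and Airn. In R26K, 26 had counts in both and 11 in only 1, and in H3.3 10 had counts in both and 13 in only 1. As a share of the members detected in a group, those seen in a single library made up 33.3% in K27R, 29.7% in R26K and 56.5% in H3.3. For all genes the shares were 38.5%, 18.5% and 36.9% in the same groups.

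Of the members, 10 had counts in all 6 libraries: Mest, Gnas, H13, Ube3a, Asb4, Commd1, Copg2, Inpp5f, Igf2r and Cd81. No count in any library was found for 12: Peg10, Ndn, Magel2, Mirg, Sfmbt2, Slc38a4, Smoc1, Rasgrf1, Peg12, Mkrn3, Calcr and Klf14. That is 22.6% of the members, against 40.8% of all genes. Another 10 had counts in a single library: Sgce, Slc22a18, Dlk1, Nespas, Peg13, Zim1, Ascl2, Mcts2, Nap1l5 and Ddc. The other 21 had counts in 2 to 5 libraries. Some members were counted in R26K alone: Meg3 and Kcnq1ot1 in both libraries, Dlk1, Peg13, Zim1, Ascl2 and Mcts2 in replicate 1, and Nap1l5, Ddc and Nespas in replicate 2. Some markers of epithelial and stromal cells were found in the same libraries. In R26K replicate 1 the epithelial markers Krt8, Krt18 and Epcam had 11.7, 10.5 and 4.54 CPM, while elsewhere Krt8 reached at most 0.756 CPM and the others had no count. In R26K replicate 2 the stromal marker Dcn had 11.9 CPM, against at most 0.095 CPM elsewhere. Other stromal markers did not follow: Col1a1 and Col3a1 had no count in R26K and at most 0.23 CPM elsewhere. The part of such cells in these values was not tested.

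The members with the highest levels were mainly those expressed from the maternal copy elsewhere. A mean of at least 10 CPM over the 6 libraries was reached by 13 of the 24 maternally expressed members and by 3 of the 29 paternally expressed ones, which were Mest, Inpp5f and Plagl1. No count at all was found for 3 maternally expressed members (Mirg, Calcr and Klf14) and for 9 paternally expressed ones. The order was the same in each library: 11 and 10 maternally expressed members stood at 10 CPM or more in K27R, 14 and 12 in R26K, and 8 and 10 in H3.3. For paternally expressed members the numbers were 4 and 3 in K27R, 2 and 2 in R26K, and 3 and 1 in H3.3. By germline mark, 35 of 42 members under an oocyte methylation imprint had a count, 5 of 7 under a sperm methylation imprint, and 1 of 4 under a maternal H3K27me3 imprint. None of the 7 members of the sperm-methylated clusters and none of the 4 H3K27me3 members averaged 10 CPM.

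**Figure D2:**
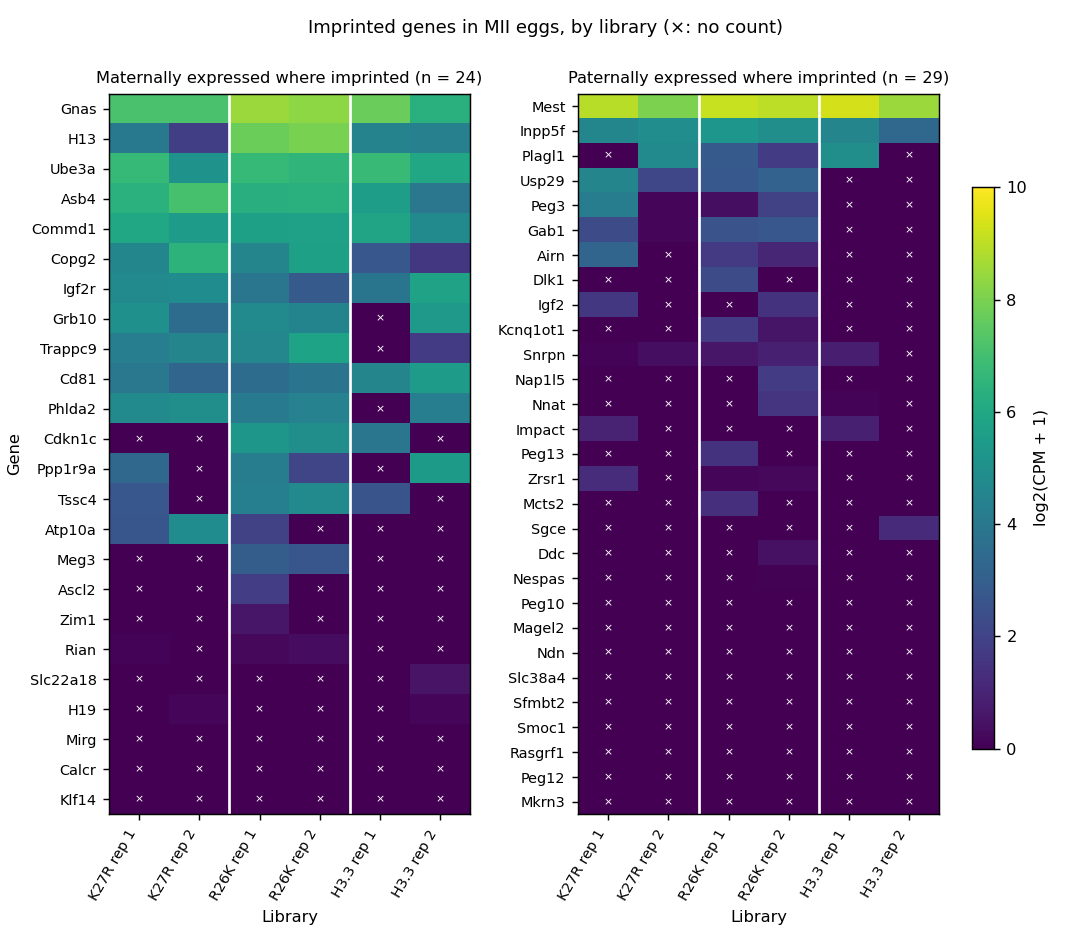
Level of every member in every library as log2(CPM + 1), with maternally expressed genes on the left and paternally expressed genes on the right, each sorted by mean level. Crosses mark libraries without a count; Mest, Inpp5f and a scatter of single libraries stand out on the right, while the upper part of the left panel is filled.

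Levels of different genes were compared per length, as mean CPM per kb of exon in GENCODE M21 over the 6 libraries. In 13 clusters that hold genes of both parental classes, the highest maternally expressed gene exceeded the highest paternally expressed gene in 9. The 4 exceptions were the Mest cluster (Copg2 at 6.15 and Mest at 120 CPM per kb), the Peg3 cluster (Zim1 at 0.0106 and Usp29 at 0.365), the H19 and Igf2 cluster (0.0122 and 0.111) and the Dlk1 and Meg3 cluster (Meg3 at 0.111 and Dlk1 at 0.12). The Dlk1 value came from R26K replicate 1 alone. Before division by exon length (18.089 kb for Meg3 and 5.657 kb for Dlk1), Meg3 was the higher, at a mean of 2.01 against 0.679 CPM. In single libraries the maternally expressed gene was higher in 7 to 10 of the 13 clusters and the paternally expressed gene in 1 to 3, with neither detected in the rest. The clusters held unequal numbers of genes of the parental classes. In several of the 9 the paternally expressed gene was a noncoding RNA or a retrogene, such as Airn, Kcnq1ot1 and Mcts2. Parental class and kind of gene were therefore not separated.

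**Figure D3:**
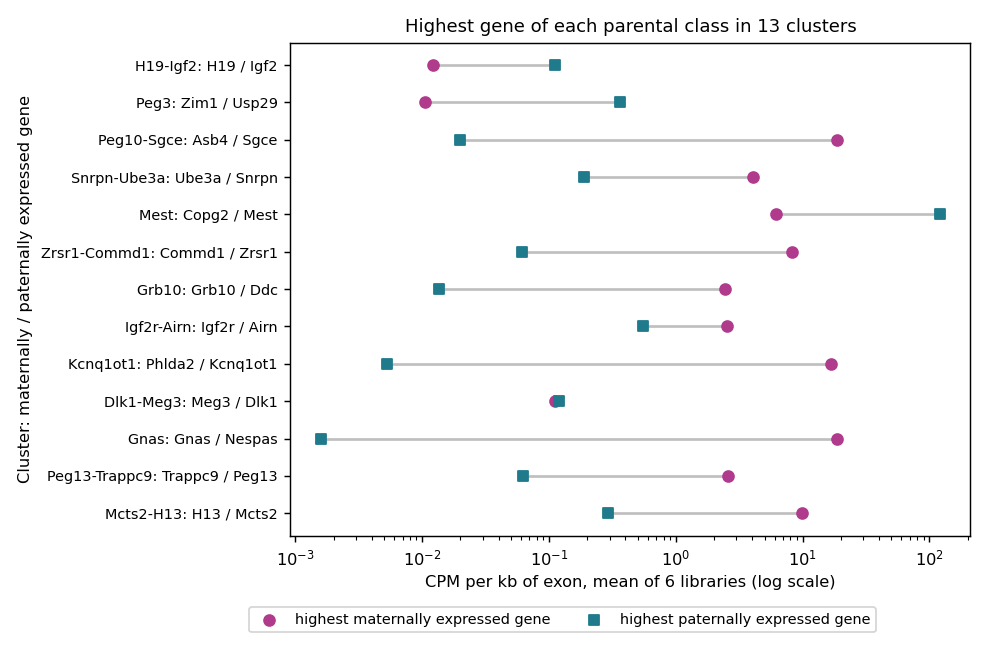
Mean level per length (CPM per kb of exon, log scale) of the highest maternally and the highest paternally expressed gene in 13 imprinted clusters. The maternally expressed gene lies to the right in 9 clusters; Mest, at 120 CPM per kb, is the highest gene of all and lies on the paternal side.

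Mest, a hydrolase-family protein of embryonic mesoderm (chromosome 6, 30723547 to 30748465), was the most abundant member. It had 482 and 259.8 CPM in K27R, 573 and 513 CPM in R26K, and 648 and 357 CPM in H3.3. The groups overlapped except that both R26K libraries lay above both K27R libraries. Its log2 fold change against H3.3 was -0.44 in K27R (95% interval -1.45 to 0.58) and 0.11 in R26K (-0.90 to 1.13), and neither passed the test. Gene counts cannot tell the transcript that starts in the control region from those that start upstream.

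Copg2, a subunit of the coatomer coat of Golgi vesicles, is the neighbour of Mest (chromosome 6, 30747554 to 30896794). It had 23.0 and 86.2 CPM in K27R, 22.3 and 49.9 CPM in R26K, and 5.52 and 2.04 CPM in H3.3. Both H3.3 libraries lay below the other 4. The log2 fold change was 3.85 ± 1.31 (SE) in K27R and 3.26 ± 1.27 in R26K, and edgeR's quasi-likelihood test gave adjusted p of 0.522 and 0.217. With DESeq2 both passed (adjusted p = 0.0154 and 0.0351). Exons of Mest and Copg2 share 912 bases on opposite strands, 17.8% of the exon length of Copg2, and the library kit does not mark the strand.

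**Figure D4:**
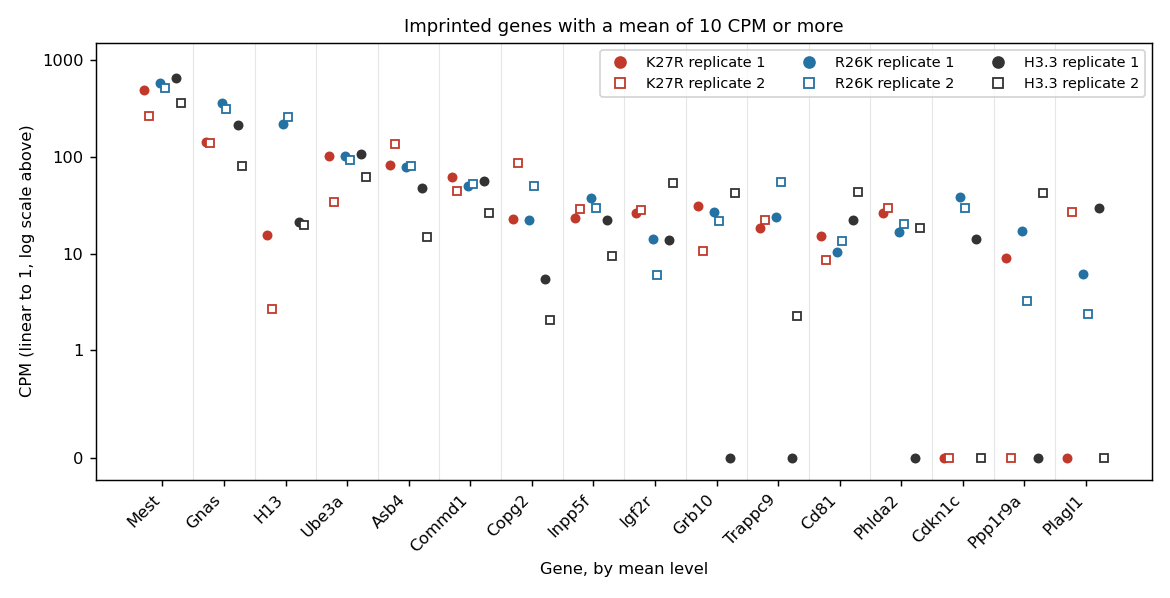
CPM of the 16 members averaging at least 10 CPM, by library (K27R, R26K and H3.3 from left to right within each gene; the axis is linear up to 1 and logarithmic above). H13 at 217 and 254 CPM in R26K stands apart from the other 4 libraries, and Grb10, Trappc9, Phlda2, Cdkn1c, Ppp1r9a and Plagl1 have at least 1 library at 0.

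H13, the signal peptide peptidase that cuts within the membrane of the endoplasmic reticulum (chromosome 2, 152669461 to 152708670), showed the widest difference among members counted in all libraries. It had 15.4 and 2.66 CPM in K27R, 217 and 254 CPM in R26K, and 21.1 and 19.5 CPM in H3.3. Both R26K libraries lay above, and both K27R libraries below, both H3.3 libraries. The log2 fold change against H3.3 was 3.53 ± 0.89 (SE) in R26K (95% interval 1.37 to 5.70) and -1.17 ± 0.82 in K27R. R26K against K27R gave 4.70 ± 0.94. In edgeR's quasi-likelihood test over all genes the adjusted p-values were 0.159, 0.638 and 0.140, so no difference passed. The 2 differences of R26K passed with DESeq2 (adjusted p = 0.000995 against H3.3 and 4.05e-06 against K27R). Correcting for GC content and gene length, a step added with the values already known, brought the difference from H3.3 to 1.93 and that from K27R to 3.52. The difference between K27R and H3.3 was -2.93 without K27R replicate 1 and -0.40 without K27R replicate 2.

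Mcts2, a translation factor retrogene inside H13 on the same strand (chromosome 2, 152687035 to 152687946), shares no annotated exon base with its host. It had 1.60 CPM in R26K replicate 1 and no count in R26K replicate 2, in K27R or in H3.3. Zrsr1, a splicing factor retrogene, had 1.38 and 0 CPM in K27R, 0.109 and 0.151 CPM in R26K, and no count in H3.3. Its host Commd1, which takes part in copper handling and endosomal sorting, was at 62.3 and 44.5 CPM in K27R, 50.3 and 52.5 CPM in R26K, and 56.5 and 26.5 CPM in H3.3. The groups of Commd1 overlapped throughout. Exons of Commd1 and Zrsr1 share 412 bases on opposite strands, 9.17% of the exon length of Zrsr1, and the library kit does not mark the strand. Nap1l5, a retrogene related to nucleosome assembly proteins, was counted in R26K replicate 2 alone, at 2.30 CPM. Inpp5f, a phosphoinositide phosphatase with an imprinted variant, had 23.0 and 29.1 CPM in K27R, 37.5 and 29.3 CPM in R26K, and 22.2 and 9.43 CPM in H3.3. Trappc9, of a vesicle tethering complex, had 18.6 and 22.4 CPM in K27R, 24.0 and 54.9 CPM in R26K, and 0 and 2.29 CPM in H3.3. Neither passed edgeR's test, and Trappc9 passed with DESeq2 for R26K against H3.3 (adjusted p = 0.0375). All 7 retrogenes and hosts had a count in some library, and 4 of them averaged at least 10 CPM.

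Among growth and signalling genes, Gnas, the stimulatory G protein alpha subunit (chromosome 2, 174284320 to 174346744), was highest. It had 140.3 and 139 CPM in K27R, 357 and 311 CPM in R26K, and 211 and 79.9 CPM in H3.3. Both R26K libraries lay above the other 4, while K27R lay within the range of H3.3. The log2 fold change of R26K was 1.20 ± 0.49 (SE) against H3.3 and 1.26 ± 0.49 against K27R, with edgeR adjusted p of 0.228 and 0.346. The value against H3.3 was 2.06 without H3.3 replicate 1 and 0.665 without H3.3 replicate 2. With the correction for GC content and length both turned negative, at -0.75 and -0.44. The antisense transcript Nespas, whose exons overlap those of Gnas on the opposite strand, had a single count in all, in R26K replicate 2.

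Igf2r, the receptor that clears insulin-like growth factor 2, had 25.98 and 28.3 CPM in K27R, 14.1 and 6.05 CPM in R26K, and 13.8 and 53.6 CPM in H3.3. Its ligand Igf2 was at 2.04 CPM in K27R replicate 1 and 1.78 CPM in R26K replicate 2, and had no count in the other 4 libraries. Grb10, an adaptor that damps insulin receptor signalling, had 31.3 and 10.7 CPM in K27R, 26.6 and 21.6 CPM in R26K, and 0 and 41.7 CPM in H3.3. For Grb10 the H3.3 libraries spanned the values of both other groups, and for Igf2r they spanned those of K27R, while both R26K libraries lay below both K27R libraries. Dlk1, a transmembrane ligand of the Notch family, was at 4.07 CPM in R26K replicate 1 alone, and Rasgrf1, a Ras exchange factor, had no count.

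In the Prader-Willi and Angelman cluster, the ubiquitin ligase had the highest level. Ube3a (chromosome 7, 59228750 to 59311536) had 103 and 33.7 CPM in K27R, 103 and 91.6 CPM in R26K, and 106 and 62.4 CPM in H3.3, with overlapping groups. Atp10a, a phospholipid flippase, had 5.38 and 28.3 CPM in K27R, 2.96 and 0 CPM in R26K, and no count in H3.3. Snrpn, a spliceosome protein, reached at most 0.817 CPM in any library, and it has a near-identical copy, Gm5802. Its exons also overlap those of Snurf on the same strand, and the part of shared reads in its low count was not tested. Exons of Ube3a overlap those of Snhg14 on the opposite strand, and the library kit does not mark the strand. Ndn, Magel2, Peg12 and Mkrn3 had no count.

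In the domain controlled by the noncoding RNA Kcnq1ot1, 3 of 6 protein-coding members averaged at least 10 CPM. Phlda2, which restrains placental growth, had 26.4 and 29.7 CPM in K27R, 16.8 and 20.4 CPM in R26K, and 0 and 18.4 CPM in H3.3. The tetraspanin Cd81, a partner of the sperm-fusion tetraspanin Cd9, had 15.1 and 8.64 CPM in K27R, 10.5 and 13.5 CPM in R26K, and 22.3 and 43.4 CPM in H3.3. Both H3.3 libraries of Cd81 lay above the other 4, but its log2 fold changes of -1.47 ± 1.33 (SE) in K27R and -1.45 ± 1.33 in R26K did not pass (edgeR adjusted p = 0.772 and 0.587). The cell cycle inhibitor Cdkn1c had no count in K27R, 38.2 and 29.8 CPM in R26K, and 14.3 and 0 CPM in H3.3. Against the floor of 3 counts per library it was at least 129-fold higher in R26K than in K27R (edgeR adjusted p = 0.346, DESeq2 adjusted p = 0.00804). That bound covers counting error only. Of genes averaging 10 to 20 CPM in the other libraries, 5.62% and 33.8% had no count in K27R replicates 1 and 2. Tssc4 was at 5.62 and 0 CPM in K27R, 18.9 and 26.1 CPM in R26K, and 4.98 and 0 CPM in H3.3. Ascl2, a transcription factor of the placenta, and the transporter Slc22a18 had counts in 1 library each.

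Asb4, a substrate adaptor of ubiquitin ligases in the Peg10 and Sgce cluster (chromosome 6, 5383386 to 5433022), had 82.3 and 134 CPM in K27R, 77.5 and 80.1 CPM in R26K, and 47.7 and 14.8 CPM in H3.3. Both H3.3 libraries lay below the other 4. The log2 fold change was 1.79 ± 0.75 (SE) in K27R and 1.33 ± 0.74 in R26K, and neither passed (edgeR adjusted p = 0.522 and 0.324). Without H3.3 replicate 1 the values were 2.88 in K27R and 2.40 in R26K, and without H3.3 replicate 2 they were 1.18 and 0.725. Ppp1r9a, an actin-binding scaffold of the same cluster, had 9.04 and 0 CPM in K27R, 17.1 and 3.27 CPM in R26K, and 0 and 42.6 CPM in H3.3. The paternally expressed Peg10, a retrotransposon-derived gene, had no count, and Sgce, of the sarcoglycan family, was at 1.27 CPM in H3.3 replicate 2 alone.

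Among transcription factors, the zinc finger gene Plagl1 had 0 and 26.9 CPM in K27R, 6.11 and 2.36 CPM in R26K, and 29.7 and 0 CPM in H3.3. Peg3, another zinc finger gene, had 17.7 and 0.095 CPM in K27R, 0.299 and 2.90 CPM in R26K, and no count in H3.3. Its divergent neighbour Usp29, a ubiquitin protease whose annotated start lies 147 bases away, had 22.5 and 3.42 CPM in K27R, 5.81 and 7.86 CPM in R26K, and no count in H3.3. Both genes were highest in K27R replicate 1. Against the floor of 3 counts per library, Usp29 was at least 53.4-fold higher in K27R and at least 28.2-fold higher in R26K than in H3.3, which covers counting error only. Its edgeR adjusted p was 0.522 in K27R and 0.213 in R26K, and with DESeq2 0.00513 and 0.00799. Zim1 had counts in R26K replicate 1 alone and Klf14 had none.

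The noncoding RNAs of imprinted clusters were low or not detected. Meg3 (chromosome 12, 109541001 to 109571726) had 6.65 and 5.38 CPM in R26K and no count in K27R or in H3.3. Against the floor of 3 counts per library it was at least 22.7-fold higher in R26K than in K27R and at least 24.8-fold higher than in H3.3. These bounds cover counting error only. Most genes averaging 2 to 10 CPM in the other libraries had no count in H3.3 or in K27R replicate 2. In K27R replicate 1, where Meg3 had no count either, the share of such genes was 21%. Meg3 did not pass edgeR's test (adjusted p = 0.346 and 0.213). Airn, which silences Igf2r where it is imprinted, was at 8.47 and 0 CPM in K27R, 2.23 and 1.09 CPM in R26K, and had no count in H3.3. Kcnq1ot1 was counted in R26K alone, at 2.44 and 0.484 CPM. H19 had 1 count in each of K27R replicate 2 and H3.3 replicate 2, and Rian, Peg13 and Nespas stayed below 2 CPM in every library. Mirg had no count. Genes with a near-identical stretch, whose reads the counting could have split, exist for Meg3 (Gm27000), Kcnq1ot1, Trappc9 and Usp29.

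The 4 members imprinted by maternal H3K27me3 were low or had no count in every group. Sfmbt2, a Polycomb-related gene needed in the placenta, Slc38a4, an amino acid transporter, and Smoc1, a matricellular protein, had no count in any library. Gab1, an adaptor of receptor tyrosine kinases (chromosome 8, 80764438 to 80880519), had 3.99 and 0.095 CPM in K27R, 4.92 and 5.60 CPM in R26K, and no count in H3.3. At such levels most genes had no count in the H3.3 libraries, as given above, and Gab1 did not pass edgeR's test in R26K (adjusted p = 0.218) or K27R (0.522). Of 10 further genes with this kind of imprint, such as Jade1, Bbx and Runx1, 7 and 1 had a count in K27R, 4 and 5 in R26K, and 2 and 1 in H3.3. Summed, they reached 20.6 and 0.095 CPM in K27R, 9.75 and 7.5 CPM in R26K, and 0.153 and 0.085 CPM in H3.3. Of the 10, 5 were tested and none passed in any comparison. The number of these genes with a count was highest in K27R replicate 1, and K27R replicate 2 did not share it. Over all genes, 44.5% and 30.8% had a count in K27R, 50.4% and 50.3% in R26K, and 31.5% and 30.7% in H3.3.

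Of the 53 members, 25 passed the expression filter and were tested. A member could pass through the group in which it was high, so counts over the tested members are given as a description. With edgeR none of the 25 was called in any comparison. Among all 10667 tested genes the share called was 0% for K27R against H3.3. It was 0.619% for R26K against H3.3 (0.403% higher and 0.216% lower) and 0.375% for R26K against K27R (0.206% higher and 0.169% lower). At an unadjusted p under 0.05, 2 of 25 members stood in K27R against H3.3, or 8%, where all genes gave 7.12%. In R26K against H3.3 there were 6, or 24%, where all genes gave 21.7%, and in R26K against K27R 4, or 16%, where all genes gave 13.2%. All of these members were higher in the first-named group, none lower. By direction, all genes gave 6.05% higher and 1.07% lower in K27R against H3.3, 17.6% and 4.14% in R26K against H3.3, and 9.82% and 3.43% in R26K against K27R. Each share of members lay near that of all genes. Groups that did not overlap were found for 9 members higher (36%) and 2 lower (8%) in K27R against H3.3. All genes gave 15.9% and 9.62%. In R26K against H3.3 there were 13 higher (52%) and 1 lower (4%), where all genes gave 44.9% and 15.2%. In R26K against K27R there were 9 higher (36%) and 4 lower (16%), where all genes gave 36.3% and 17.5%. The members' share lay above that of all genes for higher in K27R against H3.3. It lay below for lower in R26K against H3.3. These differences in share were not tested. DESeq2 called 2 of the 21 members to which it gave an adjusted p in K27R against H3.3 (Copg2 and Usp29), or 9.52%, where all genes gave 7.6% (5.91% higher and 1.69% lower). In R26K against H3.3 it called 4 of 21 (H13, Copg2, Usp29 and Trappc9), or 19%, where all genes gave 18.7% (13.8% higher and 4.84% lower). In R26K against K27R it called 2 of 20 (H13 and Cdkn1c), or 10%, where all genes gave 8.83% (5.93% higher and 2.9% lower). These members were all higher in the first-named group, and their shares too lay near those of all genes.

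The median log2 fold change of the 25 tested members was 0.21 in K27R and 1.33 in R26K against H3.3, and 0.01 in R26K against K27R. Over all tested genes the medians were 0.12, 0.66 and 0.32. The value of 1.33 ranged from 0.66 to 7.09 over the alternatives, the highest without H3.3 replicate 1. With genes lacking counts in a group put at their bound, the members' medians were the same to these digits. Over the 10 members counted in all 6 libraries they were -0.18, 0.69 and 0.19, beside -0.02, -0.05 and -0.04 over the 5006 genes so counted. Of these 10, 4 had a positive value in K27R and 8 in R26K. Both comparisons use the same H3.3 libraries.

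**Figure D5:**
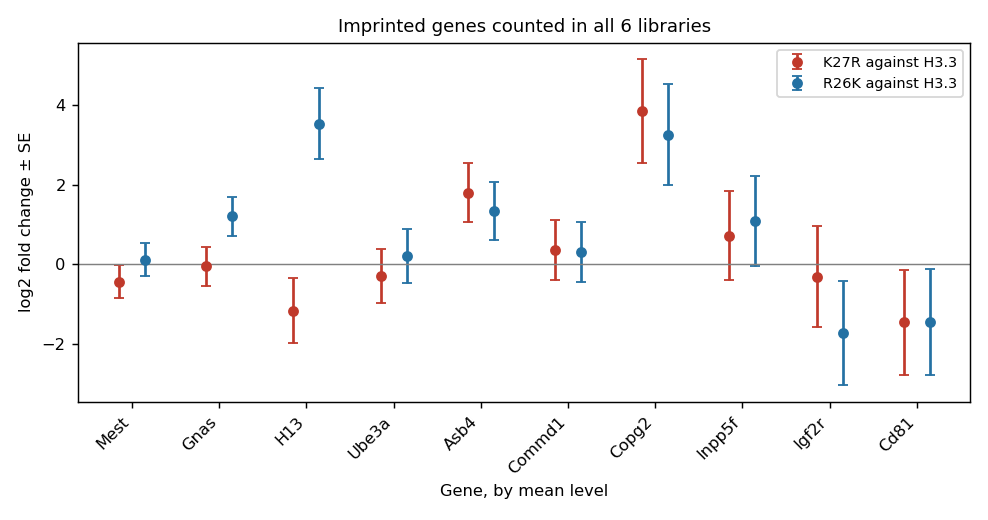
log2 fold change against H3.3, with SE, of the 10 members counted in all 6 libraries, for K27R and R26K. H13 lies at 3.53 in R26K and -1.17 in K27R, and Copg2 at 3.26 and 3.85; none of the values passed the test over all genes.

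The members' share of all counts was 0.12% and 0.0866% in K27R, 0.153% and 0.156% in R26K, and 0.123% and 0.0797% in H3.3. Maternally expressed members summed to 563 and 569 CPM in K27R, 1005 and 1020.4 CPM in R26K, and 503 and 408 CPM in H3.3. Without H13 and Gnas, left out after their values were seen, the sums were 408 and 427 CPM in K27R, 432 and 455 CPM in R26K, and 271 and 308 CPM in H3.3. With H13 and Gnas both R26K libraries lay far above the other 4, and without them they lay just above both K27R libraries. Paternally expressed members summed to 562 and 319.6 CPM in K27R, 641 and 569.6 CPM in R26K, and 702 and 368 CPM in H3.3, mostly Mest, and these groups overlapped.

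Genes that set or protect imprints were measured alongside. Of 17 such genes 16 were tested, and Zfp57 was the only one called: it had 1161 and 1211 CPM in K27R, 279.5 and 332 CPM in R26K, and 933 and 954 CPM in H3.3. R26K was lower than K27R (log2 fold change -1.96 ± 0.23 SE, edgeR adjusted p = 0.0338) and lower than H3.3 (-1.63 ± 0.22, adjusted p = 0.0486). The call against H3.3 was lost in 8 of 15 alternatives, with adjusted p up to 0.116, and that against K27R in 3, with adjusted p up to 0.267. For K27R against H3.3 none was called, and Kdm1a, a lysine demethylase, had the smallest p (26.4 and 15.3 CPM in K27R, 172 and 208.2 CPM in R26K, 27.05 and 130.4 CPM in H3.3; edgeR adjusted p = 0.522).

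Markers of the cumulus and granulosa cells that surround the egg also varied between libraries. Of 19 markers, 13 and 5 had a count in K27R, 16 and 13 in R26K, and 6 and 11 in H3.3, and Lhcgr had none in any library. Their sum was 1982 and 1417.5 CPM in K27R, 2052 and 2036 CPM in R26K, and 1022 and 1814 CPM in H3.3, most of it Serpine2. Serpine2 alone had 1655 and 1394 CPM in K27R, 1914 and 1814 CPM in R26K, and 941 and 1241 CPM in H3.3. Next by mean level were Tnfaip6, Cyp19a1 and Inha, each highest in H3.3 replicate 2, at 186, 144 and 97.5 CPM. Of 14 markers of blood, stromal and epithelial cells, 3 to 5 had a count in each library. Their sum was 162 and 125 CPM in K27R, 163 and 93.5 CPM in R26K, and 96.8 and 26.5 CPM in H3.3, mostly Pecam1. Besides Pecam1, Cd68 had 5.21 and 0 CPM in K27R, 4.78 and 1.03 CPM in R26K, and 0 and 11.0 CPM in H3.3. Apart from the R26K values of Krt8, Krt18, Epcam and Dcn given above, every other marker of that list stayed at or below 0.756 CPM. Ptprc and Ovgp1 had no count. The part of cumulus or blood cells in the members' values was not tested. In bulk samples, fewer cells of a type and less RNA per cell cannot be told apart.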

How the data were processed

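RNA of MII eggs was measured in 6 libraries, 2 for each of K27R, R26K and H3.3, grouped by their titles. The labels name SMARTer Ultra Low for cDNA, Nextera for the libraries, which does not mark strand, and reads of 50 bases from 1 end. The build mm10 and the tools TopHat2 2.1.0, featureCounts, SAMtools 1.3 and cutadapt 1.9.1 appear in the submitters' processing notes. The annotation, strand setting and treatment of multiply mapped reads are, in the sources used here, not given. Whole-number read counts per gene symbol were deposited by the authors, without normalization, totalling 10803477 to 39603440 per library. Of the columns, 0 were left out.

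From the deposited counts, CPM were computed after TMM scaling, and the 10667 genes kept by filterByExpr were tested with edgeR 4.0.16 (R 4.3.3; glmQLFit and glmQLFTest, 1 fit of all 6 libraries with 3 group means and 3 residual degrees of freedom). Each test was two-sided, with Benjamini-Hochberg adjustment over all genes and a threshold of 0.05. SE is the log2 fold change over the square root of F, and 95% intervals use the test's degrees of freedom. Gene positions and exon lengths came from GENCODE M21 (mm10), and near-identical copies from blastn 2.17.0 (at least 95% identity over 300 bases). Alternatives were DESeq2 1.42.0, RLE and upper-quartile scaling, other filters, robust spread, the replicate block, fits restricted to 1 pair of groups and leaving out each library, besides a correction for GC content and length added after the data were seen. The steps were tested on simulated counts.

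The members and lists were chosen with earlier results of these data known. Values per library are given for members averaging at least 10 CPM, for the 3 members with the smallest p in each comparison and for the H3K27me3 members; values of other members were chosen after they were seen. Parental class and mark were assigned from general knowledge, and several members are imprinted only in some tissues or transcripts. Base-level allele data were not analysed here.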

Additional observations from a re-analysis of the deposited data

Results flagged for a closer look

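H13 was singled out because its K27R and R26K libraries moved in opposite directions from both H3.3 libraries: 15.4 and 2.66 CPM in K27R, 217 and 254 CPM in R26K, and 21.1 and 19.5 CPM in H3.3. The difference itself, a log2 fold change of 4.7 for R26K against K27R, did not pass edgeR's quasi-likelihood test over all genes (adjusted p = 0.140). Over its 15 alternatives it ranged from 3.52 to 6.46. K27R replicate 2, the lower of the K27R libraries, was among the 3 libraries that held the fewest genes, and its part in the value was not tested; without it the difference was 3.93. No group had enough libraries for a check of single outlying samples.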

How the results depend on the processing

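With 2 libraries a group, calls depended on the setting while 0 imprinted genes were called in most. In K27R against H3.3, all genes gave 0 calls in the main test, 685 with DESeq2 and 0 to 5 with a library left out; imprinted genes gave 2 with DESeq2 and 0 with a library left out. In R26K against H3.3, the 66 calls over all genes became 1644 with DESeq2, 241 without a filter, 157 among genes averaging 10 CPM or more, 30 with the GC content and length correction, 0 in a fit of only these groups, and 1 to 193 with a library left out. Imprinted genes gave 4 calls with DESeq2. Their median log2 fold change of 1.33 became 3.24 without a filter, 0.657 for genes averaging 10 CPM or more, 0.827 with the GC content and length correction, and 1.34 to 7.09 with a library left out, where other genes passed the filter. In R26K against K27R, the 40 calls became 759 with DESeq2, 156 without a filter, 95 among genes averaging 10 CPM or more, and 0 to 140 with a library left out. Imprinted genes gave 2 calls with DESeq2 and 1 without a filter (H13, 4.68, adjusted p = 0.0489), and their median of 0.01 became 0.539 without a filter and 0.00574 to 1.53 with a library left out. Of the 53 genes, 41 were detected in some library, 36 to 41 with a library left out, and 20 at 10 CPM or more.

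No pairing of the samples by replicate number was seen: deviations of same-numbered libraries correlated at 0.014 (K27R and H3.3), -0.009 (R26K and H3.3) and 0.021 (R26K and K27R). The replicate block gave 260 calls in R26K against H3.3, with a members' median of 2.07, and 195 in R26K against K27R, with 1 imprinted gene called (H13, 5, adjusted p = 0.0234).

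Among members, fold changes over the alternatives were followed only for Mest, Gnas, Copg2, Asb4 and H13. Signs turned for Mest, Gnas and Copg2, and the other tested members were not followed in this way. Mest in R26K against H3.3 was -0.0828 with upper-quartile scaling, -0.224 with the GC content and length correction, and -0.257 (without H3.3 replicate 2) to 0.598 with a library left out; in K27R against H3.3 it was -0.952 to 0.0658, the positive value without H3.3 replicate 1. Gnas in K27R against H3.3 was 0.0663 with the replicate block and -0.595 to 0.815 with a library left out, positive without H3.3 replicate 1; with the GC content and length correction its values in R26K, 1.20 against H3.3 and 1.26 against K27R, became -0.747 and -0.438. Copg2 in R26K against K27R was -1.29 to 0.649 with a library left out, positive without K27R replicate 2. Apart from the alternatives' construction, the cause was not tested. By counting error alone, a level under about 0.285 CPM cannot be told from 0 in the smallest library, K27R replicate 2. Higher levels were often missed there too: 33.8% of genes averaging 10 to 20 CPM in the other libraries had no count.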
